A study of Homo sapiens with 5 samples.

Results

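The cytosolic ribosome is built from ribosomal RNA and a set of ribosomal proteins, and the genes of those proteins were followed here in MDA-MB-468 cells (an established human cell line from a triple-negative breast tumour), in samples with raised FOSL1 and in their controls. Members were chosen by symbol: RPL or RPS followed by a number, with no ending or the ending A or X, together with RPLP0, RPLP1, RPLP2 and RPSA. The symbols gave 77 core genes, 31 of the small subunit and 46 of the large subunit. A further 10 paralogs, whose symbols end in L (RPS27L) or carry an L or a Y before a last digit (RPL22L1, RPS4Y1), were kept apart, so that 87 of the 33538 genes in the matrix were members. Genes of mitochondrial ribosomal proteins, of the kinases that phosphorylate RPS6 and of pseudogenes were not members. The rule itself uses no measured value.

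Cells of 5 samples were stained with a hashtag antibody each, pooled and sequenced as 1 single-cell library of 3′ tags, to ask which genes differ when FOSL1, the gene of the AP-1 subunit FRA-1, is raised. The HA system had a control and a FOSL1 sample, and the VPR system had a control and a FOSL1 sample for each of 2 guides, named gRNA2 and gRNA3. With a single sample in each group, no difference between a pair of samples could be checked on replicates, and the 95% intervals given here reflect the counting of UMIs alone. The labels spell out neither HA nor VPR, do not say what the controls carry or whether a sample was a clone, and mention 5-fluorouracil for the series as a whole without saying whether these cells received it. After filtering, the HA control gave 3380 cells, HA FOSL1 1826, the VPR control 2595, gRNA2 2542 and gRNA3 4299, with totals between 42058533 and 85556699 UMIs (unique transcript tags) per sample. No barcode was listed under more than 1 sample. The labels disagree on the pool: they name 5 samples with an antibody each, yet give 6 as the number mixed and about 16000 as the cells loaded, while 21228 cells were called. Whether a further sample was in the pool is not known, and its part in the free RNA, the multiplets and the unassigned cells was not tested. The median cell held 20768 UMIs in HA FOSL1 and between 15401 and 18121 UMIs in the other samples.

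FOSL1 itself stood at 8.96 CPM (the UMIs of a gene scaled to the same total in every sample) in the HA control and 63.5 CPM in HA FOSL1, and at 8.91 CPM in the VPR control, 100.5 CPM for gRNA2 and 94.3 CPM for gRNA3. All 6 epithelial markers were found in every sample, at summed levels of 6632 to 11140 CPM. The hormone receptor and ERBB2 genes that this line should lack summed to between 12.3 and 15.4 CPM, with 1 of the 3 genes at 0 UMIs in every sample. Fibroblast markers summed to at most 4.37 CPM, leukocyte markers to at most 18.7 CPM and endothelial markers to at most 1.81 CPM. The nuclear RNAs MALAT1 and NEAT1, followed as a sign of RNA quality, summed to 10390 CPM in the HA control, 7289 CPM in HA FOSL1, 10230 CPM in the VPR control, 9848 CPM for gRNA2 and 9284 CPM for gRNA3. Their part in the results on ribosomal protein genes was not tested.

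Ribosomal proteins are needed in matched numbers, because each ribosome holds a single copy of nearly every one of them. Their mRNAs are abundant and short, and most begin with a run of pyrimidines known as a terminal oligopyrimidine (TOP) tract, through which the mTOR pathway and the protein LARP1 control their translation and stability. In growing cancer cells ribosome production is a large part of the work of transcription and translation, and the transcription factor MYC is a known activator of it.

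The start sites of the genes that the results turn on are shown because the TOP tract is the feature their mRNAs share, and because it sets some of the paralogs apart from the core genes. Each line gives 30 bases of the gene strand, 5′ to 3′, beginning 10 bases before the RefSeq start on GRCh38.p14, with the tract in capitals. The tract searched for was a C followed by at least 4 more bases that are C or T, beginning within 5 bases of the start. RPL26L1 has 2 promoter entries, and neither holds the tract. Its line shows a start inside the RefSeq bounds of the gene, which begin at chr5:172954094.
RPL13A, chr19:49487598-49487627, plus strand: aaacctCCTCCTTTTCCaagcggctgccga
RPS18, chr6:33272065-33272094, plus strand: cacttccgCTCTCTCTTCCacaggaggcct
RPL10A, chr6:35468391-35468420, plus strand: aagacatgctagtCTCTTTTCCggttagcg
RPSA, chr3:39406710-39406739, plus strand: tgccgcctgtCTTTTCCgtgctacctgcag
RPLP0, chr12:120201092-120201121, minus strand: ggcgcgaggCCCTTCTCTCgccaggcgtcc
RPS27, chr1:153990752-153990781, plus strand: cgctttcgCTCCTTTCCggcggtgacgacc
RPS27L, chr15:63157458-63157487, minus strand: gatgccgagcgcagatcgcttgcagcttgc
RPL26, chr17:8383174-8383203, minus strand: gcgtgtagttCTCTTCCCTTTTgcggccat
RPL26L1, chr5:172958719-172958748, plus strand: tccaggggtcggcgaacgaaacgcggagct
The tract was found in 53 of the 62 core genes that had a RefSeq promoter entry (85.5%). It was found in 25.2% of all 27305 genes with an entry and in 28.1% of those with a UMI. Of the 69 mitochondrial ribosomal protein genes with an entry, 23.2% held it. Of the 8 paralogs with an entry, 3 held it, among them RPL22L1 (ccgtagCTTCCTCTCTgctctcgcggccga, chr3:170870176-170870205, minus strand) and RPL36AL (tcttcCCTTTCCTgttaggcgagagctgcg, chr14:49620607-49620636, minus strand). RPS27L and RPL26L1 had no such run of letters in the window, whereas the core genes they resemble, RPS27 and RPL26, did.

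The promoters were also searched on both strands, from 250 bases before to 50 bases after the start, for the letters that AP-1 and other factors are known to bind. TGANTCA, the AP-1 motif, stood in 2 of 77 core promoter entries (2.6%), those of RPL24 and RPL6, against 7.71% of all 35116 entries. These 77 entries belong to 62 core genes. The ETS-family letters CCGGAAG stood in 33.8% of the core entries against 10.3% of all. The YY1 letters GCCATNTT stood in 10 of 77 against 6.58%, and the E-box CACGTG in 5.19% against 7.26%. Among the entries of genes with a UMI the shares were 6.27% for TGANTCA, 13.8% for CCGGAAG, 7.75% for GCCATNTT and 8.62% for CACGTG. Mitochondrial ribosomal protein genes, which share no ribosome with the core genes, held CCGGAAG in 38.8% and GCCATNTT in 32.9% of their entries.

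The core genes together took 17.4% of gene UMIs in the HA control and 16.1% in HA FOSL1, and 16.5% in the VPR control, 16.6% in gRNA2 and 16.8% in gRNA3. Among the samples the HA control thus stood highest and HA FOSL1 lowest, with the 3 VPR samples close together between them. Each FOSL1 sample is compared below with the control of its own system, as the HA arm, the gRNA2 arm and the gRNA3 arm. The summed level of HA FOSL1 was 0.926 of that of the HA control, a log2 ratio of -0.112 (counting interval -0.113 to -0.110). With gRNA2 the log2 ratio to the VPR control was 0.0081 (0.0067 to 0.0096), and with gRNA3 it was 0.0207 (0.0194 to 0.0219). The VPR control itself stood below the HA control by a log2 ratio of -0.07, so that against the VPR control, used as an alternative reference added after the values were seen, HA FOSL1 differed by -0.04. The small ratio with gRNA2 changed sign, to -0.0071, when counts were scaled to the UMIs outside core and mitochondrially encoded (MT-) genes, whose own share was 11.3% in the HA control, 9.41% in HA FOSL1, 11.1% in the VPR control, 10.2% for gRNA2 and 10.1% for gRNA3.

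**Figure D1:**
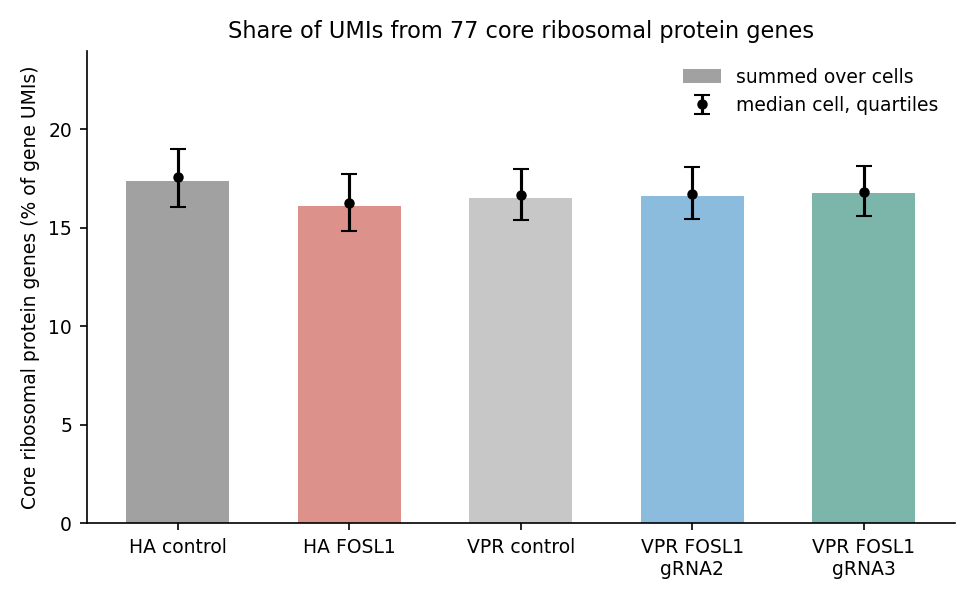
Share of all gene UMIs that came from the 77 core ribosomal protein genes (vertical axis, percent) in each of the 5 samples. Bars give the share of summed UMIs, and points with whiskers the median cell with its quartiles. The HA control bar stands at 17.4% and the HA FOSL1 bar at 16.1%, and the quartiles of all samples overlap.

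The same order was seen in single cells. The median cell of the HA control gave 17.6% of its UMIs to core genes (quartiles 16.1% and 19.0%), that of HA FOSL1 16.2% (14.8% and 17.7%), that of the VPR control 16.7%, that of gRNA2 16.7% (15.4% and 18.1%) and that of gRNA3 16.8% (15.6% and 18.2%). The quartiles of a sample lay farther apart than the medians of any pair of samples. Cells are not replicates, and no test was made on them. Thinned to 5000 UMIs each, the median cells stood at 17.6%, 16.3%, 16.6%, 16.7% and 16.9% in the same order of samples.

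Depth moved with the core share as well as with the sample. In cells of 15000 to 20000 UMIs the median share was 17.5% in the HA control, 16.8% in HA FOSL1, 16.5% in the VPR control, 16.9% for gRNA2 and 17.1% for gRNA3. In cells of 20000 to 30000 UMIs it was 16.9%, 16.0%, 16.1%, 16.1% and 16.5%. HA FOSL1 stood below the HA control in each of the 5 depth ranges compared, while its place against the VPR control changed with the range. The free RNA of empty droplets held more core UMIs than the cells did, 20.6% (20.5% to 20.6%, exact binomial interval) of 2112998 UMIs, and subtracting 5% of each sample's UMIs as free RNA left a log2 ratio of -0.12 in the HA arm.

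**Figure D2:**
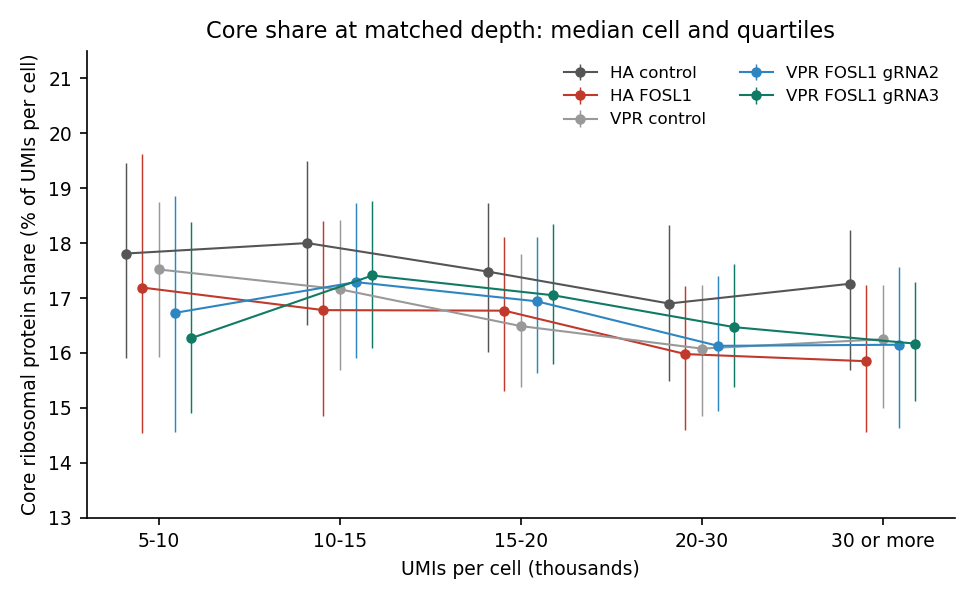
Core ribosomal protein share of the UMIs of a cell (vertical axis, percent) by the UMIs of the cell (horizontal axis, in units of 1000), for the 5 samples. Points are medians over cells and whiskers are quartiles. HA FOSL1 lies below the HA control in every range of depth, with 16.8% against 17.5% in cells of 15000 to 20000 UMIs.

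Both subunits took part alike. Core genes of the small subunit held 7.59% of UMIs in the HA control, 7.03% in HA FOSL1, 7.20% in the VPR control, 7.27% for gRNA2 and 7.31% for gRNA3. Large-subunit genes held 9.82%, 9.08%, 9.34%, 9.37% and 9.47%. The ratio of small to large was 0.773, 0.774, 0.771, 0.775 and 0.772, so that it moved far less than either share. In the HA arm the log2 ratio to control was -0.11 for either subunit.

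RPLP0, RPLP1 and RPLP2 encode the stalk, the flexible arm of the large subunit that recruits translation factors. Their summed level was 6700 CPM in the HA control, 6435 CPM in HA FOSL1, 6429 CPM in the VPR control, 6694 CPM for gRNA2 and 6793 CPM for gRNA3. Here the control of the VPR system and HA FOSL1 were nearly level and lowest. The log2 ratio of the sum was -0.06 (-0.07 to -0.05) in the HA arm, 0.06 (0.05 to 0.07) for gRNA2 and 0.08 (0.07 to 0.09) for gRNA3. RPLP0 was among the 6 core genes farthest above the control with each guide, at 1455, 1409, 1411, 1492 and 1517 CPM in the same order of samples.

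The members differed widely in level and little between samples. A 3′ tag is counted once per transcript, so CPM is not divided by transcript length. RPS12 had the highest mean over the 5 samples, 6129 CPM, followed by RPL39 (5436 CPM), RPS18 (5267 CPM), RPL13 (4981 CPM) and RPL10 (4799 CPM). In all, 18 core genes had a mean of at least 3000 CPM, 49 lay between 1000 and 3000 CPM and 10 below 1000 CPM. At the low end stood RPL17 with 64.7 CPM. Ribosomal protein genes have many processed pseudogenes of nearly the same sequence, and how reads that match several places were counted is not given in these sources, so the level of any single member is uncertain to that extent. The readthrough gene RPL17-C18orf32 overlaps RPL17 and held at most 0.05 CPM in any sample. How reads that fit both genes were counted is not given either, so this value does not tell whether RPL17 lost reads to the overlap.

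Of the 77 core genes, 71 kept their 5 levels within 1.2-fold. RPL22 and RPL11 were among the steadiest, with highest over lowest level of 1.02 and 1.03. RPL11 and RPL5, which carry the smallest ribosomal RNA of the large subunit and are known to bind the p53 regulator MDM2, stood at 3234 to 3318 CPM and at 2233 to 2333 CPM over the samples. RPS6, the small-subunit protein that the mTOR pathway phosphorylates, stood at 1969 CPM in the HA control, 1793 CPM in HA FOSL1, 1860 CPM in the VPR control, 1855 CPM for gRNA2 and 1896 CPM for gRNA3. The HA control was the highest sample for 56 core genes, and HA FOSL1 the lowest for 53.

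All 77 core genes passed the minimum mean of 20 CPM over the pair of samples compared. In the HA arm 70 of them lay below the control and 7 above, with a median log2 ratio of -0.09, an SD over genes of 0.09 and a range from -0.33 to 0.06. For the genes of all kinds at a mean of at least 200 CPM the median in this arm was -0.01 and the SD 0.34. The counting interval lay wholly below 0 for 66 core genes and wholly above 0 for 6. With scaling by TMM factors, which weigh the bulk of genes, 57 lay below, and with scaling to UMIs outside core and MT- genes all 77 did. The median of all genes at 20 CPM or more, 0.004 without these scalings, moved to 0.04 and -0.07.

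With the guides the core genes lay on either side of the control. In the gRNA2 arm 45 were above and 32 below, with a median of 0.01, an SD of 0.04 and a range from -0.10 to 0.14. In the gRNA3 arm 51 were above and 26 below, with a median of 0.02, an SD of 0.06 and a range from -0.14 to 0.17. The medians of all genes at 200 CPM or more were 0.01 and 0.02. These 2 arms share the VPR control, so their values are set side by side and their likeness is not read. Neither control has a FOSL1 construct or guide named. Between them, 76 core genes were lower in the VPR control and 1 higher, with a median of -0.07. Of all genes at 200 CPM or more, 273 of 726 were lower in the VPR control, and their median was 0.02.

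**Figure D3:**
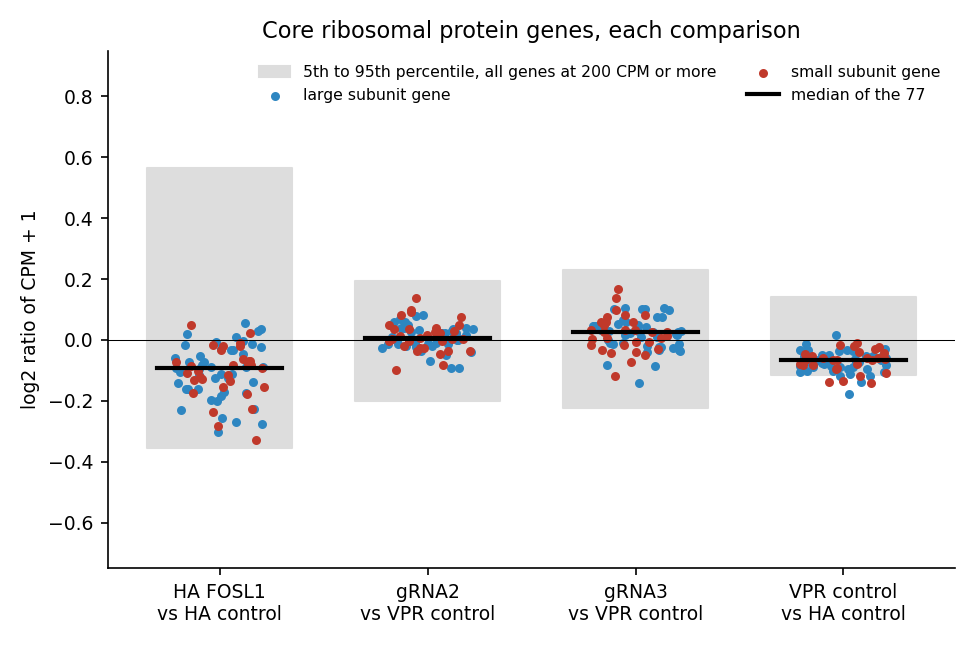
Log2 ratio of CPM + 1 (vertical axis) of each of the 77 core genes in 4 comparisons: HA FOSL1 against the HA control, gRNA2 and gRNA3 each against the VPR control, and the VPR control against the HA control. Points are genes, red for the small and blue for the large subunit, black lines are medians, and grey boxes span the 5th to 95th percentile of all genes at 200 CPM or more. The median lies at -0.09 in the HA arm, 0.01 and 0.02 with the guides and -0.07 between the controls.

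Few core genes differed by as much as 1.2-fold. In the HA arm 5 were at least 1.2-fold lower than the control, and the share of all genes past this ratio was 13.3%, or 10.5% among genes at 200 CPM or more. None was at least 1.2-fold higher, where 17.3% of all genes and 14.6% of those at 200 CPM or more were. In the gRNA2 arm the counts were 0 lower (3.30% of all genes) and 0 higher (4.07%), and in the gRNA3 arm 0 lower (4.48%) and 0 higher (4.41%). Between the controls they were 0 lower (1.19%) and 0 higher (1.05%). RPL13A, RPS18, RPL10A and RPL3 were among the 5 genes of the HA arm. None of the core genes was 1.2-fold lower when HA FOSL1 was set against the VPR control (12.4% of all genes were), 2 were under TMM scaling or among cells of 10000 to 30000 UMIs, and 11 under scaling to the remaining UMIs.

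RPL13A, a large-subunit protein also known for a role in silencing of inflammatory mRNAs, lies at chr19:49487608-49492308 on GRCh38.p14. Its levels were 2900 CPM in the HA control, 2353 CPM in HA FOSL1, 2566 CPM in the VPR control, 2445 CPM for gRNA2 and 2415 CPM for gRNA3. The FOSL1 samples were the 3 lowest. The log2 ratio was -0.30 (-0.31 to -0.29) for HA FOSL1, -0.07 (-0.08 to -0.06) for gRNA2 and -0.09 (-0.10 to -0.08) for gRNA3. The controls differed as well, with a log2 ratio of the VPR control to the HA control of -0.18. That is a wider gap than either guide had.

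RPL3, which lies beside the peptidyl transferase centre, stood at 1535, 1274, 1414, 1326 and 1334 CPM in the HA control, HA FOSL1, the VPR control, gRNA2 and gRNA3. RPL23, on the face that meets the small subunit, stood at 1126, 961.0, 1023, 959.0 and 927.5 CPM. RPS3, at the channel where mRNA enters, stood at 2999, 2565, 2727, 2575 and 2595 CPM. RPL7A stood at 2289, 1916, 2141, 2067 and 2085 CPM. In all 4 genes the FOSL1 samples lay below both controls, and the distance was larger in the HA arm than with either guide. The VPR control also lay below the HA control, by log2 ratios of -0.12 for RPL3, -0.14 for RPL23, -0.14 for RPS3 and -0.10 for RPL7A.

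RPS18 and RPL10A were low in HA FOSL1 and hardly apart from the control with the guides. RPS18, in the head of the small subunit, stood at 5788 CPM in the HA control, 4752 CPM in HA FOSL1, 5330 CPM in the VPR control, 5199 CPM for gRNA2 and 5266 CPM for gRNA3. RPL10A, a protein of the large subunit, stood at 1414, 1168, 1318, 1286 and 1289 CPM in the same order. Their log2 ratios in the HA arm were -0.28 in either case, against -0.04 and -0.02 with the guides for RPS18 and -0.04 and -0.03 for RPL10A.

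Higher values were smaller in size. RPSA, a small-subunit protein also known as the laminin receptor, stood at 1241 CPM in the HA control, 1224 CPM in HA FOSL1, 1187 CPM in the VPR control, 1305 CPM for gRNA2 and 1333 CPM for gRNA3. The guide samples were the 2 highest, and the log2 ratio was 0.14 (0.12 to 0.15) with gRNA2, 0.17 (0.15 to 0.18) with gRNA3 and -0.02 (-0.04 to -0.003) in the HA arm. RPS2, at the entry of the mRNA channel, stood at 3750 CPM in the HA control, 3313 CPM in HA FOSL1, 3559 CPM in the VPR control, 3794 CPM for gRNA2 and 3913 CPM for gRNA3. Its log2 ratio was -0.18 (-0.19 to -0.17) in the HA arm, 0.09 (0.08 to 0.10) for gRNA2 and 0.14 (0.13 to 0.15) for gRNA3, so that HA FOSL1 was the lowest of the samples and the guides the highest.

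In the HA arm RPL8, RPL5, RPL35, RPS27A and RPL21 were among the core genes farthest above the control, with log2 ratios from 0.02 to 0.06. RPL8, whose protein lies at the peptidyl transferase centre, stood at 1753, 1823, 1689, 1743 and 1810 CPM in the HA control, HA FOSL1, the VPR control, gRNA2 and gRNA3. RPS27A, which is made as a fusion with ubiquitin, stood at 3933, 3993, 3852, 4077 and 4072 CPM. Of the remaining genes farthest from the control with a guide, RPL12 and RPL36 had log2 ratios of 0.10 and 0.10 with gRNA3 and of -0.14 and -0.05 in the HA arm, and RPS29 had -0.05 with gRNA3 and -0.07 in the HA arm.

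**Figure D4:**
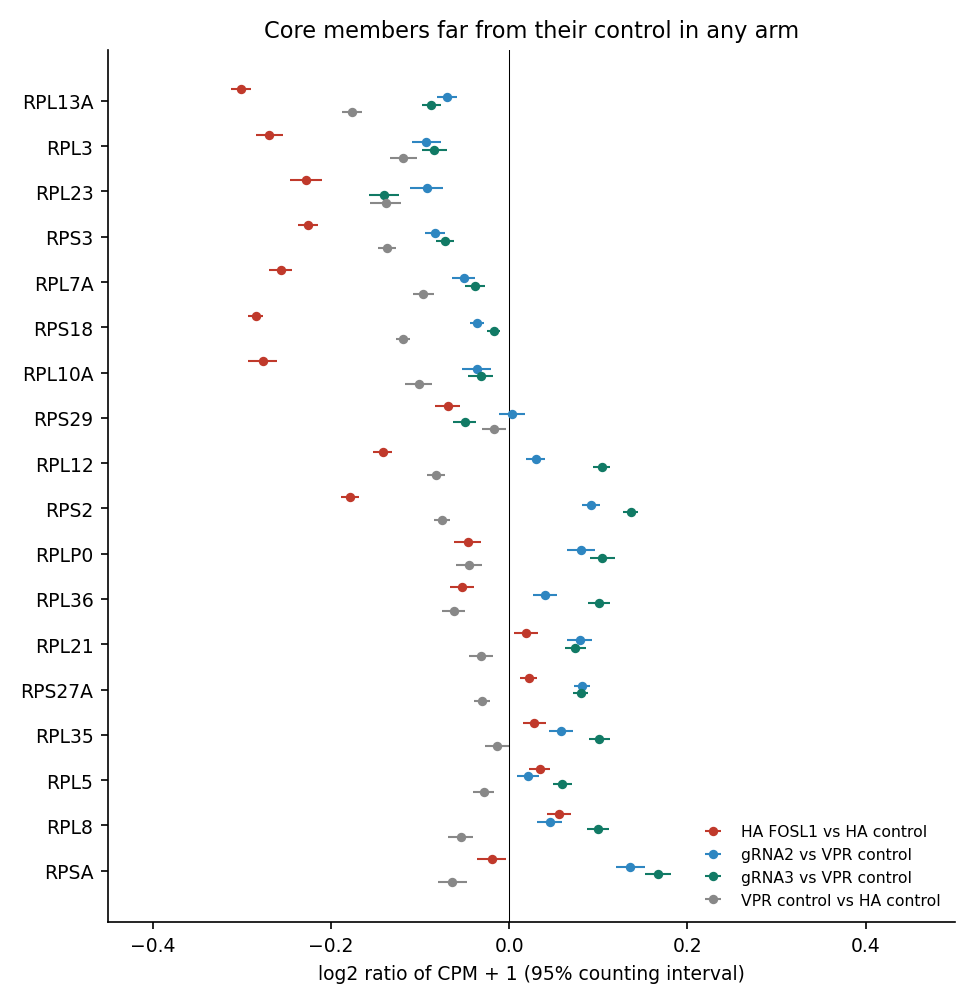
Log2 ratio of CPM + 1 (horizontal axis) of core genes among those farthest from their control in any arm, with 95% counting intervals. Red is HA FOSL1 against the HA control, blue and green are gRNA2 and gRNA3 against the VPR control, and grey is the VPR control against the HA control. Of the genes shown, RPL13A lies farthest left in the HA arm at -0.30 and RPSA farthest right with gRNA3 at 0.17.

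Across the 77 genes, the log2 ratios of the HA arm and of the gRNA2 arm, which share no sample, had a Pearson r of 0.73 (Spearman's rho 0.70), and those of the HA arm and the gRNA3 arm an r of 0.69 (rho 0.67). These describe genes of 1 library that share depth and free RNA, and genes are not independent replicates. No r is given for other genes, so whether these values are particular to core genes was not tested. The core genes also differed from each other between the controls, with log2 ratios of the VPR control to the HA control from -0.18 to 0.02. The guides differed most for RPL12, by 0.07 on the log2 scale. The 3 FOSL1 samples lay above both controls for 5 core genes (among them RPL21, RPL35, RPL4 and RPS27A), where 28.3% of all genes at 20 CPM or more did so, and below both for 23, where 22.5% of all genes did.

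With the 3 FOSL1 samples treated as repeats and the system as a covariate, edgeR's quasi-likelihood test with Benjamini-Hochberg adjustment called 0 of the 77 core genes, in a fit that called 1.61% of 15439 genes (0.900% higher and 0.706% lower). Without adjustment (p under 0.05), 5 core genes were lower, where 12.6% of all genes were, and 0 higher, where 13.4% were. RPL23, RPL3, RPL13A and RPS3 were among the 5. DESeq2 called 0, against 7.48% of all genes, and had 1 core gene lower without adjustment, against 11.4% of all genes in either direction. RPL13A had a fitted log2 fold change of -0.15 (SE 0.06, adjusted p = 0.1799 by edgeR), and its adjusted p lay between 0.1547 and 0.3811 over the 7 alternatives. The median fitted log2 difference of the core genes was -0.01, with a range from -0.18 to 0.10. Simulated counts were given the spread seen between the controls. There the same fit called 3 of 50 genes changed by 0.1 on the log2 scale and 38 of 50 changed by 0.25. Differences of the size seen in most core genes were thus near or under what the fit could detect. In the samples themselves, larger fitted effects could go uncalled. MRPS10 had 0.37 (adjusted p = 0.07919 by edgeR) and SNHG12 had 0.41 (adjusted p = 0.07017 by edgeR). The share called when the HA construct and the guides differ in effect was not tested. The labels name no separate cultures, so these p-values measure only the spread between constructs and guides within 1 pool.

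A separate fit tested whether the guides and the HA construct differed from each other in their effect. Of the core genes, 4 were called, all with the guides above the HA construct, in a fit that called 12.2% of 16071 genes (3.81% higher and 8.37% lower). RPS2 differed by 0.27 on the log2 scale (SE 0.06, adjusted p = 0.01672 by edgeR), and its adjusted p lay between 6.355e-05 and 0.01655 over the 5 alternatives. RPS18 differed by 0.24 (SE 0.06, adjusted p = 0.02607), with 0.0005858 to 0.03902 over the alternatives. RPL10A differed by 0.22 (adjusted p = 0.03643) and RPL13A by 0.20 (adjusted p = 0.04977), and neither was called by DESeq2 (adjusted p = 0.1042 and 0.1378). The count of core genes called was 4 without a filter on low counts, 2 with DESeq2 (which called 3.56% of all genes), 7 with factors computed without core genes, 9 after thinning cells and 30 with no factors. This model has 1 residual degree of freedom, and its HA side rests on 1 control and 1 FOSL1 sample. The spread behind its p-values comes only from gRNA2 against gRNA3, which share a system and a FOSL1 state. It does not include spread between HA samples or between controls. The HA control was the higher of the controls for these 4 genes, with log2 ratios of the VPR control to it of -0.08 for RPS2, -0.12 for RPS18, -0.10 for RPL10A and -0.18 for RPL13A, and its part in these calls was not tested.

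Of the 10 paralogs, 6 passed the minimum mean of 20 CPM and the filter of edgeR. RPS4Y1 and RPS4Y2 had 0 UMIs in every sample. In HA FOSL1, the sample with the smallest UMI total, a floor of 3 UMIs is 0.0713 CPM, and the exact 95% interval of RPS4Y1 reaches 0.0877 CPM. RPL10L had 1 UMI or 0 in each sample, and RPL3L, known from muscle, had at most 3. RPL10, RPL3 and RPS4X, the core genes they resemble, stood at 4681 to 5072 CPM, 1274 to 1535 CPM and 2064 to 2299 CPM. The UMIs of the paralogs summed to between 1185 and 1308 CPM, a small part of what the core genes gave.

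RPS27L, a paralog of RPS27 known as a target of p53, stood at 143.1 CPM in the HA control, 198.1 CPM in HA FOSL1, 159.4 CPM in the VPR control, 170.6 CPM for gRNA2 and 169.4 CPM for gRNA3. Each FOSL1 sample lay above both controls. The log2 ratio was 0.47 (0.42 to 0.51) in the HA arm, 0.10 (0.05 to 0.14) for gRNA2 and 0.09 (0.05 to 0.13) for gRNA3. RPS27 itself stood at 2744, 2508, 2488, 2456 and 2413 CPM in the same order, with log2 ratios of -0.13, -0.02 and -0.04. The paralog was the only member of either kind at least 1.2-fold higher in the HA arm, and among 6 genes that is close to the 17.3% of all genes. The pooled FOSL1 effect on RPS27L was 0.28 (SE 0.09, adjusted p = 0.1541 by edgeR), with an adjusted p of 0.046 when no filter on low counts was used and 0.0956 to 0.3112 under the other 6 alternatives. The guides lay below the HA construct by -0.40 on the log2 scale (SE 0.07, adjusted p = 0.002448 by edgeR), a call kept under all 5 alternatives (0.0001065 to 0.01376).

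RPL26L1 stood at 148.1 CPM in the HA control, 166.1 CPM in HA FOSL1, 153.0 CPM in the VPR control, 162.4 CPM for gRNA2 and 166.5 CPM for gRNA3, each FOSL1 sample above both controls. Its fitted effect was 0.15 (SE 0.05, adjusted p = 0.1318 by edgeR). RPL26 stood at 1250, 1238, 1192, 1221 and 1230 CPM, where the groups overlapped. RPL36AL stood at 435.2 CPM in the HA control and 485.0 CPM in HA FOSL1, and at 440.4, 445.0 and 438.6 CPM in the 3 VPR samples, whereas RPL36A stood at 523.6 and 483.3 CPM in the HA pair and at 500.3, 507.9 and 508.5 CPM in the VPR samples.

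RPL22L1, whose level is known to be kept in check by RPL22, stood at 141.0, 129.5, 116.8, 124.3 and 122.4 CPM in the HA control, HA FOSL1, the VPR control, gRNA2 and gRNA3, and RPL22 at 1154, 1130, 1128, 1140 and 1154 CPM. For RPL22L1 the widest difference was between the controls, a log2 ratio of -0.27 (-0.32 to -0.22). RPL39L, known from testis and tumours, stood at 44.9, 51.2, 49.1, 50.4 and 48.9 CPM, and RPL39 at 5437, 5165, 5495, 5477 and 5607 CPM. RPL7L1, a protein of ribosome assembly more than of the finished ribosome, stood at 276.1, 278.4, 266.2, 279.4 and 281.2 CPM, and RPL7 at 1117, 1103, 1072, 1099 and 1111 CPM. RPL7L1 was above both controls in each FOSL1 sample, by log2 ratios of at most 0.08, and edgeR called neither it, RPL22L1 nor RPL39L.

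**Figure D5:**
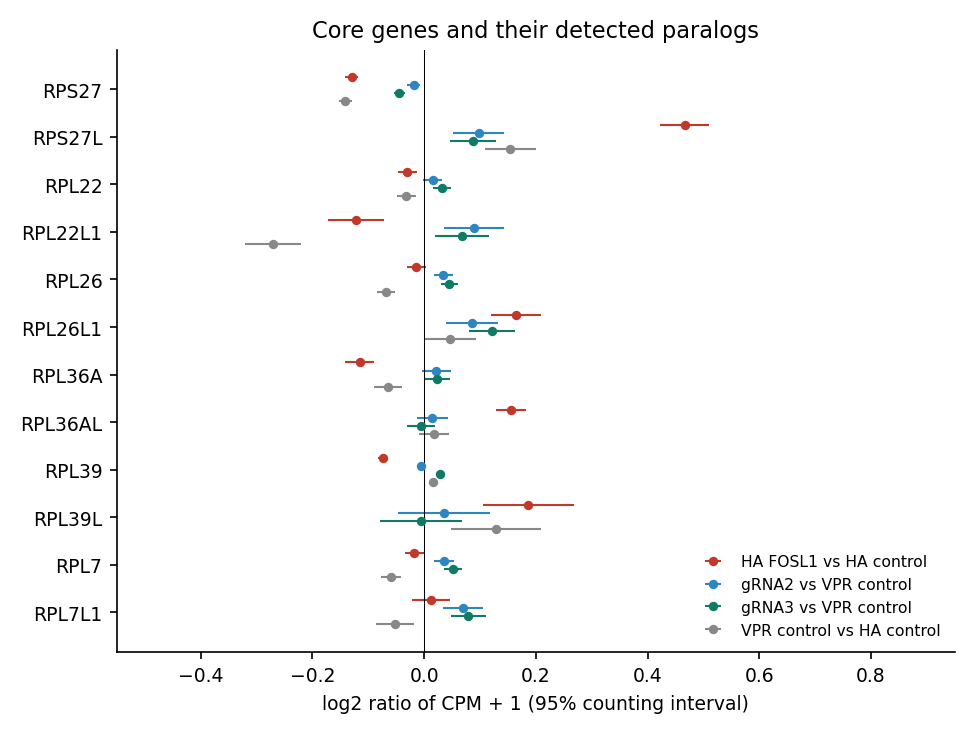
Log2 ratio of CPM + 1 (horizontal axis) of the 6 detected paralogs, each under the core gene it resembles, with 95% counting intervals. Red is HA FOSL1 against the HA control, blue and green are gRNA2 and gRNA3 against the VPR control, and grey is the VPR control against the HA control. RPS27L lies farthest right in the HA arm at 0.47, while RPS27 lies at -0.13.

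FAU and RACK1 also belong to the ribosome, though the rule does not reach their symbols. FAU is made as a fusion with a ubiquitin-like protein, and RACK1 is a scaffold bound to the small subunit. FAU stood at 2145, 2166, 2153, 2204 and 2243 CPM in the HA control, HA FOSL1, the VPR control, gRNA2 and gRNA3, and RACK1 at 2326, 2262, 2209, 2188 and 2273 CPM. Their log2 ratios lay between -0.04 and 0.06 over the arms, and edgeR called neither.

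The wider machinery of ribosome production was compared through lists of named genes. Of 18 translation genes with known TOP mRNAs, edgeR called 0 for the FOSL1 effect, with 1 higher and 3 lower before adjustment (p under 0.05, where 13.4% of all genes were higher and 12.6% lower) and a median of -0.02. DESeq2 called 1 of them lower, in a fit that called 7.48% of all genes. The highest and lowest ratios of each list are taken among its genes with a mean of at least 20 CPM. EEF1A1, the elongation factor that brings tRNA to the ribosome, stood at 6992, 6061, 5982, 5618 and 5685 CPM, highest in the HA control as most core genes were. PABPC1, the poly(A) binding protein, stood at 704.8 CPM in the HA control and 911.4 CPM in HA FOSL1, and at 697.5, 747.2 and 747.7 CPM in the VPR samples. HNRNPA1, an RNA-binding protein, stood at 409.8 and 299.0 CPM in the HA pair and at 397.4, 343.6 and 333.2 CPM in the VPR samples, and its fitted effect of -0.30 had an adjusted p of 0.07193 by edgeR. EIF4A2 was the highest of the list with each guide, by a log2 ratio of 0.14.

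Ribosome assembly genes lay mostly above the control with the guides, by small amounts. Of 26 at 20 CPM or more, 23 were above with gRNA2 (median 0.07) and 24 with gRNA3 (median 0.09), where the medians of all genes were 0.01 and 0.00. In the HA arm 15 were above (median 0.03). Of all genes at this level, 3103 of 5752 were above with gRNA2, 2909 of 5743 with gRNA3 and 2921 of 5748 in the HA arm. The guides share the VPR control, so their counts are not independent results. EdgeR called 0 of 28 for the FOSL1 effect. At an unadjusted p under 0.05, 4 were higher, a share near the 13.4% of all genes. DESeq2 called 0, in a fit that called 7.48% of all genes. NCL (nucleolin) stood at 843.0, 698.2, 885.2, 932.2 and 895.3 CPM, and NOP10, of the particle that makes pseudouridine, at 188.8, 260.9, 191.0, 194.0 and 195.0 CPM. NOB1, which trims the small-subunit RNA, had log2 ratios of 0.18 in the HA arm, 0.24 for gRNA2 and 0.21 for gRNA3. Of the 26, the lowest ratio was that of GNL3 with gRNA2, -0.05, and that of WDR12 with gRNA3, -0.04.

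RNA polymerase I, which makes ribosomal RNA, and the genes that control ribosomal protein synthesis had no call for the FOSL1 effect by edgeR (0 of 10 and 0 of 16, with 1 higher and 0 lower in the first and 4 higher and 1 lower in the second before adjustment, where 13.4% of all genes were higher and 12.6% lower). The edgeR fit called 1.61% of all genes. DESeq2 called 0 in the first and 1 higher in the second, in a fit that called 7.48% of all genes. POLR1D had log2 ratios of 0.21 in the HA arm, 0.14 for gRNA2 and 0.18 for gRNA3, and POLR1E had 0.20 with gRNA3, whereas UBTF stood at -0.22 in the HA arm and -0.07 with gRNA3 and TAF1B at -0.13 with gRNA2. MYC stood at 92.9 CPM in the HA control, 79.9 CPM in HA FOSL1, 81.4 CPM in the VPR control, 81.2 CPM for gRNA2 and 76.6 CPM for gRNA3. LARP1, which binds TOP mRNAs, stood at 159.3, 170.5, 159.9, 170.3 and 164.3 CPM. Among the genes of this second list at 20 CPM or more, LARP4 had the highest ratio in the HA arm, 0.43, MAX the highest with gRNA3, 0.23, EIF4EBP2 the lowest in the HA arm, -0.24, and DDIT4 the lowest with gRNA2, -0.14. Below that level, MYCN, a relative of MYC, stood at 10.99 CPM in the HA control, 3.04 CPM in HA FOSL1, 10.34 CPM in the VPR control, 10.84 CPM for gRNA2 and 11.55 CPM for gRNA3, low in HA FOSL1 alone among these 5 samples.

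Of 11 listed hosts of small nucleolar RNAs 5 were among the genes of the matrix, and edgeR called 0 of them, with 4 higher at an unadjusted p under 0.05, where 13.4% of all genes were. DESeq2 called 2 of the 5 higher, in a fit that called 7.48% of all genes. SNHG12 stood at 21.8, 29.7, 18.7, 22.4 and 24.7 CPM, with an adjusted p of 0.07017 for its fitted effect of 0.41 by edgeR, and EPB41L4A-AS1 at 60.5, 54.3, 53.8, 48.2 and 50.4 CPM. Many core genes also carry such RNAs in their introns: by RefSeq positions 29 of the 77 held at least 1. Their median log2 ratio in the HA arm was -0.11, against -0.09 for the 48 without, and 0.01 against 0.01 and 0.02 against 0.03 with the guides. Among the 6 core genes farthest below the control in the HA arm, 4 held at least 1, among them RPL13A, RPL3 and RPL7A, a count made after the values were seen.

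The mitochondrial ribosomal protein genes, which serve the separate ribosome of the mitochondrion, summed to 9075 CPM in the HA control, 9342 CPM in HA FOSL1, 9164 CPM in the VPR control, 9470 CPM for gRNA2 and 9683 CPM for gRNA3. Each FOSL1 sample was thus above both controls, where the core genes had HA FOSL1 lowest. The log2 ratio of the sum was 0.04 (0.04 to 0.05) in the HA arm, 0.05 (0.04 to 0.05) for gRNA2 and 0.08 (0.07 to 0.08) for gRNA3. EdgeR called 0 of 78 for the FOSL1 effect, with 12 higher and 0 lower before adjustment, where 13.4% of all genes were higher and 12.6% lower, and DESeq2 called 2 higher, in a fit that called 7.48% of all genes. MRPS10 had the highest ratio in the HA arm, from 111.5 to 158.5 CPM, and its fitted effect of 0.37 had an adjusted p of 0.07919 by edgeR. MRPS6 had the highest ratio with gRNA3, 0.30, while MRPS25 had the lowest in the HA arm, -0.29, MRPL24 with gRNA2, -0.10, and MRPS31 with gRNA3, -0.06, among genes at 20 CPM or more. Below that level, MRPS28 had -0.14 with gRNA2 and -0.20 with gRNA3.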

How the data were processed

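Single-cell RNA counts of 5 hashed MDA-MB-468 samples from 1 pool were used. The deposited matrix gives the raw UMI count of each gene in each barcode, made by the authors with Cell Ranger on hg38, per the submitters' processing notes (version 4 per the file headers). The annotation version and the handling of reads that match several places are not given in the sources used here. The deposited assignment table gives each of 21228 called cells a hashtag, with the authors' assignment probability as a fraction. The 2 hashtags outside the VPR system carry the prefix GOF and were taken as the HA samples by elimination. A single sample was assigned to 15371 of them. The authors' table marked 5181 as multiplets, which were left out with 402 unassigned cells and 274 blanks; doublets within a sample were not called. Cells with at least 1500 genes and at most 20% MT- UMIs were kept (14642). The 729 cells so left out were not part of any value except the alternative on all assigned cells.

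UMIs were summed per sample. A ratio is the log2 ratio of CPM + 1, with an exact conditional binomial interval at 95%. Counts of all genes were fitted with edgeR 4.0.16 (glmQLFTest after filterByExpr and TMM normalisation; Benjamini-Hochberg adjustment over all genes tested, threshold 0.05) over the 5 samples, with 2 residual degrees of freedom for the FOSL1 effect and 1 for the interaction of system and FOSL1 state. DESeq2 1.42.0 was an alternative. The fits were tested on simulated data, where the interaction test called 5 of 50 genes changed by 0.25 and 38 of 50 changed by 0.5 on the log2 scale. There 3 unchanged genes were called among 15856. The simulation gave all 5 samples the same spread, taken from the controls. In the data the interaction test sees only the spread between gRNA2 and gRNA3. The simulated counts therefore do not give its rate of false calls in these samples.

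Genes were named by a rule: per arm the 6 core genes farthest above and below the control, the 5 most abundant, the stalk genes, RPL5, RPL11 and RPS6, every paralog with its core gene, FAU and RACK1, and the extremes of each related list. Some genes that the rule names are not reported here, but stay in the counts, medians and ranges. Genes outside the rule, such as RPL4, EEF1A1, MYC, MYCN, MRPS28 and LARP1, were named after their values were seen. The members and lists were chosen with earlier results of these data known. Start sites and positions are RefSeq's on GRCh38.p14; 62 core genes and 8 paralogs had a promoter entry.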

Additional observations from a re-analysis of the deposited data

Results flagged for a closer look

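The difference between the guides and the HA construct passed the edgeR interaction test, with Benjamini-Hochberg adjustment, for 4 of the 77 core genes and 1 of the 6 paralogs tested, in a fit that called 12.2% of all genes. RPS27L lay lower with the guides than with the HA construct, by -0.398 on the log2 scale (adjusted p = 0.002448): its ratio to control was 0.47 in the HA arm and 0.10 and 0.09 with gRNA2 and gRNA3. RPS2 lay higher with the guides, by 0.2714 (adjusted p = 0.01672), with HA FOSL1 below its control and both guide samples above theirs. RPS18 differed by 0.2359 (adjusted p = 0.02607), RPL10A by 0.2206 (adjusted p = 0.03643) and RPL13A by 0.2007 (adjusted p = 0.04977), with every FOSL1 sample below its control and HA FOSL1 farthest below. Each of these values rests on 1 HA control and 1 HA FOSL1 sample. The adjusted p-values hold only the spread between gRNA2 and gRNA3, and none between HA samples or between controls.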

How the results depend on the processing

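The summed log2 ratio of the core genes in the HA arm, -0.1115, kept its sign in 8 of 8 alternatives. It was -0.0772 under TMM scaling, -0.1744 scaled to UMIs outside core and MT- genes, -0.1089 with all assigned cells, -0.1027 in cells of 10000 to 30000 UMIs, -0.1078 after thinning, -0.1188 after subtracting free RNA and -0.0384 against the VPR control, the last chosen after seeing the data. The gRNA2 ratio was 0.0165, -0.0071, 0.0054 and 0.0135 under the first 4 of these and 0.0099 without the 10% of cells with the most UMIs. For gRNA3 the ratio was 0.0426 under TMM scaling, 0.0072 on the remaining UMIs, 0.0298 in the depth window, 0.0221 without the deepest cells and 0.022 after subtracting free RNA. The count of core genes at least 1.2-fold lower in the HA arm was 2 under TMM scaling, 11 on the remaining UMIs, 2 in the depth window and 0 against the VPR control. The other counts at 1.2-fold stayed at 0 in every alternative run. EdgeR's count for the FOSL1 effect was 0 in each direction in all 7 alternatives, and ranged from 0 to 0 when either guide was left out, with 0 then also at an unadjusted p under 0.05. The interaction count was 30 with no factors, 7 with factors computed without core genes, 2 with DESeq2 and 9 after thinning. Apart from scaling and the choice of control, the cause of these shifts was not tested. Of the ratios of single named members, the scaling to remaining UMIs moved 88 of 132 beyond their counting interval, TMM scaling 69, thinning 34, the depth window 29, free RNA 10, the deepest cells 4 and all assigned cells 0; no gene past 1.2-fold changed sign. No paired analysis was possible because each group holds a single sample, so a replicate number pairs nothing beyond the system already in the model. The interaction could not be fitted without a guide, since no residual degrees of freedom would remain. At 42058533 UMIs or more per sample, the counting error of abundant genes is small. It leaves out the spread between samples of a group, which these data cannot measure.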
